A study of Mus musculus with 48 samples.

Results

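Pck1, Fbp1, Slc2a2, Gckr, Pfkfb1, Pklr, Khk and Ppp1r3c encode enzymes, a transporter and regulators that move glucose and fructose through the liver. These 8 genes were chosen by name from the 55416 genes counted, and each was found by its Ensembl identifier. Their RNA was measured by polyA RNA-seq in the livers of 48 mice, 8 in each of 6 genotype groups. In the knock-in study, male mice carried no copy (DN:WT), 1 copy (DN:HET) or 2 copies (DN:HOM) of LXRα W441R, a dominant-negative change in the ligand-binding domain of liver X receptor-α introduced by CRISPR in C57BL/6J mice. In the knockout study, mice had both alleles of LXRα (KO:WT), lacked 1 (KO:HET) or lacked both (KO:HOM). All 6 groups received the same western diet (0.2% cholesterol, 32% of its weight as sucrose and 42% of its energy as fat) for 8 weeks, from 8 to 16 weeks of age. The knockout line began on a mixed Sv129/C57Bl/6 background and was then backcrossed to C57BL/6, and was housed at another institute than the knock-in line, and the sex of the knockout-study mice is not given in the sources used here, so study, line, site and any difference in sex cannot be told apart. Both mutations were present in every cell of the mouse. Mice were bred from heterozygous parents and had free access to food. Their feeding state at collection is not given in the sources used here.

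The liver both makes and consumes glucose. Gluconeogenesis runs from pyruvate and lactate to glucose and shares its reversible steps with glycolysis, while separate enzymes at the irreversible steps set the direction of flow. Dietary fructose enters by its own kinase, below the main control point of glycolysis, and sugar-sensing and insulin-responsive transcription factors raise the genes for sugar use after a carbohydrate meal. LXRα, encoded by Nr1h3, is a sterol-activated nuclear receptor best known in liver for raising genes of cholesterol disposal and fatty acid synthesis.

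Libraries held 5332897 to 16961379 reads on genes, with a median of 15879972. 2 of the 48 libraries held fewer than 10000000. All levels are CPM, the reads of the gene relative to the library's total after that total was scaled by edgeR's trimmed mean of M-values (TMM). Nr1h3, the targeted gene, had medians of 90.2 CPM in KO:WT, 59.7 in KO:HET and 26.4 in KO:HOM. The KO:HOM livers thus still had Nr1h3 reads, and the groups followed the labels. A point mutation leaves Nr1h3 reads in place, so its level is no direct check of the knock-in allele. Nr1h3 ran from 82.1 to 96.9 CPM in DN:WT and from 68.5 to 77.4 in DN:HOM (log2 fold change -0.32, edgeR adjusted p = 1.5e-05), without the 2 libraries named next. Under scaling by library size alone that difference was 0.11 (adjusted p = 0.13). 2 knock-in libraries went against their labels for the genes described here: the library labelled DN:WT animal 10 had Pfkfb1, Pklr and Khk within the ranges of the other DN:HOM livers (12.6, 178 and 235 CPM), and the library labelled DN:HOM animal 12 had Pfkfb1 and Pklr within those of the other DN:WT livers (56.8 and 397 CPM) and Khk between the groups (468 CPM). Their Nr1h3 levels, 71.3 and 86.9 CPM, also lay within the range of the opposite group. Neither animal was matched to the individual liver measurements supplied with the paper, so both were left out of the values below, and the tests of the 8 genes are also given with them. Whether the labels of these 2 libraries were exchanged is not given in the sources used here. If they were, every value over all 48 livers would mix the genotypes of DN:WT and DN:HOM. Of the other values below, some are given only without them. That leaves 46 livers, 7 in DN:WT and DN:HOM and 8 in each other group. Fold changes with standard errors (SE) and Benjamini-Hochberg adjusted p-values come from edgeR's quasi-likelihood test over all 15711 genes tested.

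In DN:HOM livers 7 of the 8 genes were lower than in DN:WT, among them Pfkfb1, Pklr and Khk at 28.1%, 28.6% and 35.9% of the wild-type level. Of all genes tested in that comparison, 30% were called lower and 29.1% higher. Pck1, the entry enzyme of gluconeogenesis, was not called. In KO:HOM livers 3 of the 8 genes, Pklr, Pfkfb1 and Gckr, were lower than in KO:WT, where 7.87% of all genes were called lower. With all 48 livers the counts became 6 of 8 for the knock-in, where 25% of all genes were called lower, and 0 of 8 for the knockout, where 4.12% were. No gene of the 8 was called in either heterozygous group.

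**Figure D1:**
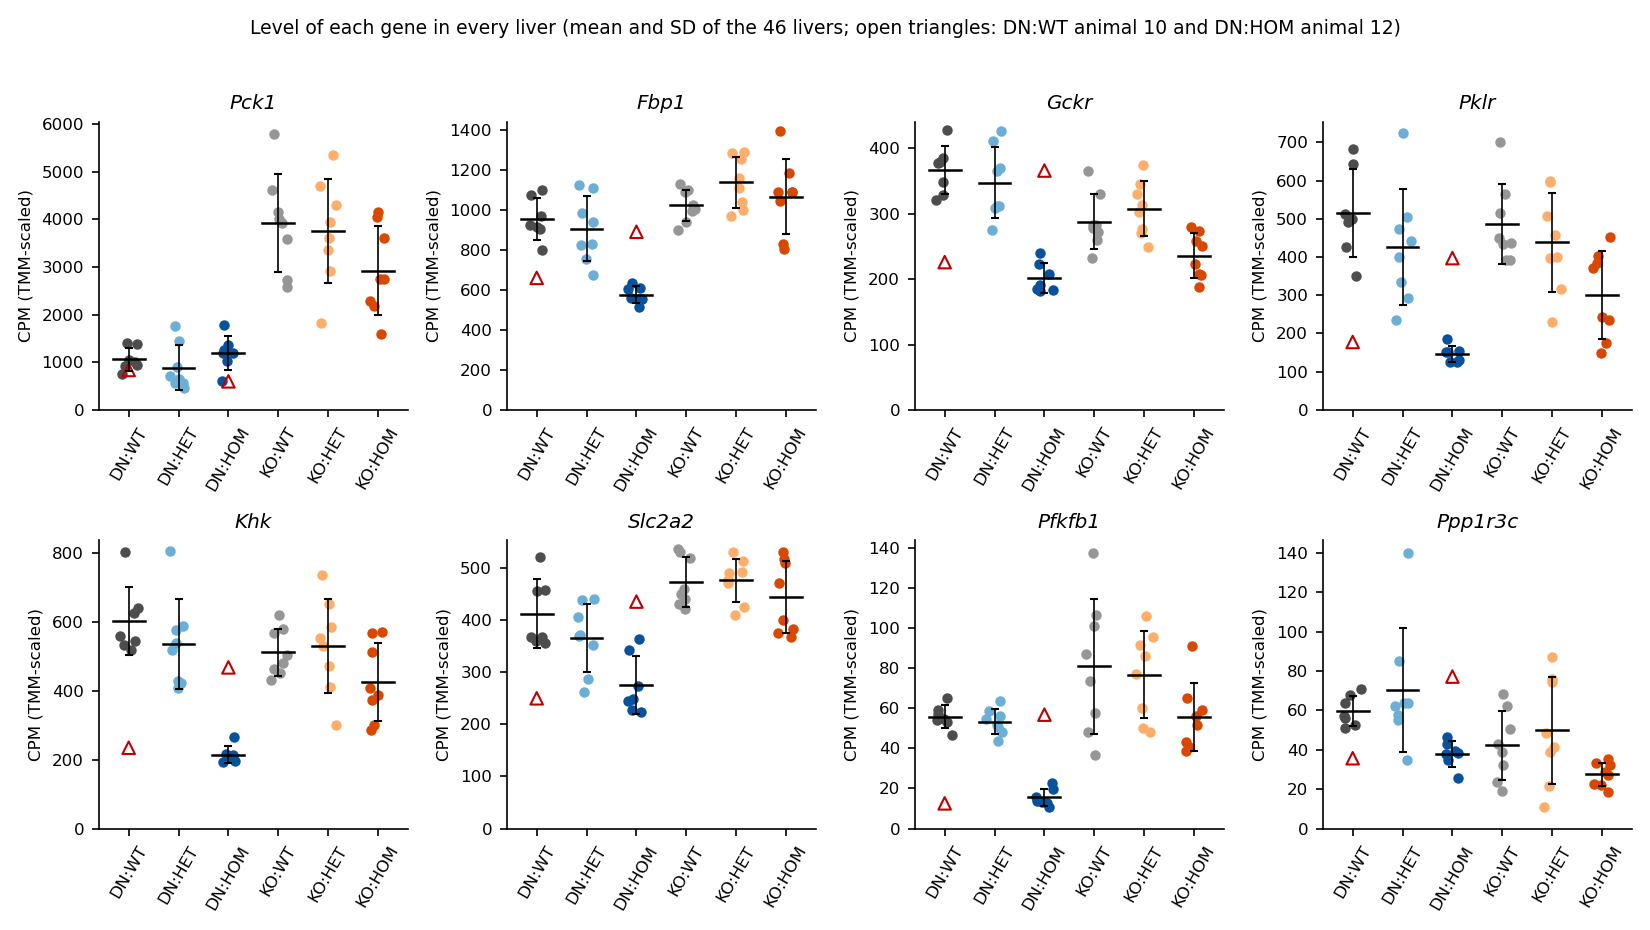
Level of each of the 8 genes in every liver (TMM-scaled CPM, linear axis from 0) by genotype group, with a point per liver and the mean and SD of the 46 livers as bars. Open triangles mark the left-out library in DN:WT, animal 10, and that in DN:HOM, animal 12. Pfkfb1, Pklr and Khk lie lower in every filled DN:HOM point than in any filled DN:WT point, whereas Pck1 lies higher in the knockout study in all genotypes.

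Pck1 (ENSMUSG00000027513, GRCm39 chr2:172994744-173001066, plus strand) encodes the cytosolic phosphoenolpyruvate carboxykinase, which turns oxaloacetate into phosphoenolpyruvate. Its promoter is shown because Pck1 was the member that did not fall in DN:HOM livers. The window covers the 250 bases before the RefSeq start (RefSeq GRCm38.p6, located by exact match at GRCm39 chr2:172994616-172994865, plus strand), and capitals mark TTACGTCA, the cyclic AMP response element described for this gene.
Pck1 promoter: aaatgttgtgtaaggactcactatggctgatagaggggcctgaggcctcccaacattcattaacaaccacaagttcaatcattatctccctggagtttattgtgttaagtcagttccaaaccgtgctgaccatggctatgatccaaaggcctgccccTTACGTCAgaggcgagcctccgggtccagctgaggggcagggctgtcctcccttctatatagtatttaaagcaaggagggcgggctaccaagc
These letters stood 93 to 86 bases before the start and were found, on either strand, in 147 of 32851 promoter windows of that length (0.447%). They were spelled out from this gene, so their presence here is no finding.

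Pck1 ran from 762 to 1403 CPM in DN:WT livers, with a median of 1009. In DN:HET livers it ran from 455 to 1758, with a median of 674. In DN:HOM livers it ran from 607 to 1783, with a median of 1192. The 3 groups overlapped widely, and the DN:HET livers spread most, with a coefficient of variation of 53.7%. Homozygotes differed from wild types by a log2 fold change of 0.18 (SE 0.25, edgeR adjusted p = 0.55), with an interval of -0.31 to 0.68 that spans both directions. Across the knockout livers Pck1 ran from 2574 to 5781 CPM in KO:WT (median 3958), from 1817 to 5343 in KO:HET (median 3779.9) and from 1594 to 4161 in KO:HOM (median 2745). The lowest KO:WT liver thus stood above every DN:WT liver. KO:HOM lay below KO:WT by a log2 difference of -0.43 (SE 0.24, edgeR adjusted p = 0.21, interval -0.89 to 0.03), and those groups overlapped. The wild types of the studies differed by a log2 fold change of 1.89 (SE 0.25, edgeR adjusted p = 2.2e-06, KO:WT against DN:WT; 1.92 with all 48 livers), where 12% of all genes were called in either direction. Gckr was the only other of the 8 genes called between the wild types, lower in KO:WT by -0.34 on the log2 scale (adjusted p = 0.018), and not with all 48 livers (-0.28, adjusted p = 0.13). Line, site and study cannot be told apart in these differences.

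Fbp1 (ENSMUSG00000069805, chr13:63012567-63036263, minus strand) encodes fructose-1,6-bisphosphatase, which removes a phosphate that phosphofructokinase adds in glycolysis. It ran from 797 to 1097 CPM in DN:WT (median 923), from 676 to 1123 in DN:HET (median 885) and from 517 to 635 in DN:HOM (median 561). Every DN:HOM liver lay below every DN:WT liver, and the DN:HOM livers were tightly grouped, with a coefficient of variation of 7.08%. The log2 fold change was -0.71 (SE 0.10, edgeR adjusted p = 6.8e-08), or 60.9% of the wild-type level. The exact two-sided permutation p was 0.00058 for 7 against 7 livers, the smallest that this number allows. In the knockout study the medians were 1013 CPM in KO:WT, 1133 in KO:HET and 1087 in KO:HOM, over ranges of 901 to 1129, 969 to 1287 and 804 to 1396. KO:HOM overlapped KO:WT on both sides, with a log2 difference of 0.05 (SE 0.09, edgeR adjusted p = 0.75, interval -0.13 to 0.24).

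Slc2a2 (ENSMUSG00000027690, chr3:28752051-28785508, plus strand) encodes GLUT2, the main glucose transporter of hepatocytes, which also carries fructose. It ran from 355 to 522 CPM in DN:WT (median 368), from 262 to 440.3 in DN:HET (median 371) and from 223 to 365 in DN:HOM (median 249). 6 of the 7 DN:HOM livers lay below every DN:WT liver and 1 fell within their range. Its log2 fold change was -0.57 (SE 0.11, edgeR adjusted p = 3.5e-05; exact two-sided permutation p = 0.0017, n = 7 and 7). The level in DN:HOM was 67.3% of that in DN:WT. Under scaling by library size alone the fall was -0.14 and was not called (edgeR adjusted p = 0.19). In the knockout study it ran from 421 to 538 CPM in KO:WT (median 455), from 410.1 to 531 in KO:HET (median 484) and from 368 to 530.4 in KO:HOM (median 436). 4 of the 8 KO:HOM livers lay below every KO:WT liver and the others within their range. KO:HOM differed from KO:WT by -0.10 on the log2 scale (SE 0.11, edgeR adjusted p = 0.57, interval -0.31 to 0.11).

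Gckr (ENSMUSG00000059434, chr5:31454787-31484658, plus strand) encodes a regulatory protein that restrains the phosphorylation of glucose in hepatocytes when glucose is low. It ran from 321 to 429 CPM in DN:WT (median 378), from 275 to 426 in DN:HET (median 339) and from 183 to 240.0 in DN:HOM (median 191). Every DN:HOM liver lay below all DN:WT and all DN:HET livers. The log2 fold change from wild type was -0.85 (SE 0.10, edgeR adjusted p = 2.3e-09; exact two-sided permutation p = 0.00058, n = 7 and 7), or 55.5% of the wild-type level. Gckr in the knockout line ran from 233 to 366 CPM in KO:WT (median 280.3), from 248 to 374 in KO:HET (median 308) and from 187 to 281 in KO:HOM (median 237). 4 of the 8 KO:HOM livers lay below every KO:WT liver. That fall was -0.29 on the log2 scale (SE 0.10, edgeR adjusted p = 0.025), and it was not called with all 48 livers (-0.29, adjusted p = 0.12) or after leaving out any 1 of 5 livers (KO:WT animals 1 and 5, KO:HOM animals 8, 26 and 27).

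Pfkfb1 (ENSMUSG00000025271, chrX:149371225-149426874, plus strand) encodes the liver form of the enzyme that makes and breaks fructose 2,6-bisphosphate, the signal that turns glycolysis on and Fbp1's enzyme off. It ran from 46.6 to 64.9 CPM in DN:WT (median 54.7), from 43.5 to 63.4 in DN:HET (median 53.1) and from 11 to 22.9 in DN:HOM (median 13.8). The gap between the DN:HOM livers and all other knock-in livers was wide, and DN:HET lay at the wild-type level. The fall in DN:HOM was -1.83 on the log2 scale (SE 0.21, edgeR adjusted p = 7.8e-10; exact two-sided permutation p = 0.00058, n = 7 and 7). Pfkfb1 in the knockout line ran from 36.6 to 137 CPM in KO:WT (median 80.3), from 47.9 to 106 in KO:HET (median 81.5) and from 38.8 to 91.0 in KO:HOM (median 53.8). No KO:HOM liver lay below the KO:WT range, and the KO:WT livers varied with a coefficient of variation of 41.5%. KO:HOM was lower by a log2 fold change of -0.55 (SE 0.19, edgeR adjusted p = 0.037), but that call was lost with all 48 livers (-0.54, adjusted p = 0.19) and after leaving out any 1 of 9 livers (KO:WT animals 5, 14, 33 and 34, KO:HOM animals 20, 22, 26, 27 and 30). The exact two-sided permutation p for 8 against 8 livers was 0.099. Apex2 overlaps Pfkfb1 on the opposite strand over 1640 bases and had 25.2% as many reads. The counts used here are strand-specific.

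Pklr (ENSMUSG00000041237, chr3:89043449-89054619, plus strand) encodes the liver and red cell pyruvate kinase, the last step of glycolysis and a textbook target of the sugar-sensing factor ChREBP. Khk (ENSMUSG00000029162, chr5:31078775-31101479, plus strand) encodes ketohexokinase, which phosphorylates fructose. Their promoters are shown together because these genes varied most closely with each other across livers. Both windows hold the 250 bases before a RefSeq start (RefSeq GRCm38.p6, located by exact match at GRCm39 chr3:89043680-89043929 and chr5:31078653-31078902, both plus strand). Capitals mark CACGGG and, 5 bases further on, its reverse complement CCCGTG in Pklr, a pair spelled out from this gene's known carbohydrate response element, and the E-box CACGTG in Khk.
Pklr promoter: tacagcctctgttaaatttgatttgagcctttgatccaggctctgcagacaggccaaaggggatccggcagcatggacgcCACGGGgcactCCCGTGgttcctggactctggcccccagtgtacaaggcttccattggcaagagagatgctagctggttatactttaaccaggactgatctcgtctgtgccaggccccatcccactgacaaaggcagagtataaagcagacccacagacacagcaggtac
Khk promoter: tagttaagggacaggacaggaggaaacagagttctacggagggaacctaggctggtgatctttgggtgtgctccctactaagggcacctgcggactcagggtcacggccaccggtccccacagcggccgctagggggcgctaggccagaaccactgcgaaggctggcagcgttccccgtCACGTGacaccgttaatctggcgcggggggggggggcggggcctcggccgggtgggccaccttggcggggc
The pair stood 170 to 154 bases before the Pklr start and occurred in no other of the 32851 windows. The E-box stood 71 to 66 bases before the Khk start, and 6.02% of all windows held one on either strand. The LXR-type DR4 repeat, AGGTCA repeated after 4 bases, was searched on both strands and was in 0 of the 12 windows of the 8 genes and in 0.0152% of all windows. A match or its absence in these windows says nothing of binding.

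Pklr ran from 351 to 682 CPM in DN:WT (median 499.8), from 234 to 724 in DN:HET (median 421) and from 124 to 185 in DN:HOM (median 152). No DN:HOM liver reached the lowest DN:WT or DN:HET liver. The log2 fold change was -1.81 (SE 0.22, edgeR adjusted p = 2.9e-09; exact two-sided permutation p = 0.00058, n = 7 and 7). Across the knockout livers Pklr ran from 391 to 702 CPM in KO:WT (median 444), from 231 to 599 in KO:HET (median 429) and from 148 to 454 in KO:HOM (median 306). 6 of the 8 KO:HOM livers lay below every KO:WT liver. Pklr fell in KO:HOM by a log2 fold change of -0.70 (SE 0.20, edgeR adjusted p = 0.011; exact two-sided permutation p = 0.0042, n = 8 and 8), or 61.6% of the wild-type level, and -0.69 with all 48 livers (adjusted p = 0.057). Hcn3 overlaps Pklr on the opposite strand over 1239 bases and had 3.18% as many reads.

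Khk ran from 519 to 803 CPM in DN:WT (median 559), from 409 to 807 in DN:HET (median 528) and from 194 to 266 in DN:HOM (median 211). The DN:HOM livers lay clear below both other knock-in groups. The log2 fold change was -1.48 (SE 0.16, edgeR adjusted p = 8.4e-11; exact two-sided permutation p = 0.00058, n = 7 and 7). In the knockout study Khk ran from 432 to 620.2 CPM in KO:WT (median 492), from 302 to 736 in KO:HET (median 542) and from 286 to 572 in KO:HOM (median 398). 5 of the 8 KO:HOM livers lay below every KO:WT liver and the others lay among them. The difference was -0.27 on the log2 scale and was not called (SE 0.14, edgeR adjusted p = 0.19, interval -0.56 to 0.01). Cgref1 overlaps Khk on the opposite strand over 13780 bases and had 1.08% as many reads.

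Ppp1r3c (ENSMUSG00000067279, chr19:36708523-36714070, minus strand) encodes a glycogen-targeting subunit of protein phosphatase 1, which favours glycogen synthesis. Its promoter is shown because it is the other of the 8 genes with an E-box in its window (RefSeq GRCm38.p6, located by exact match at GRCm39 chr19:36714005-36714254, minus strand). Capitals mark CACGTG, whose last base stood 99 bases before the start.
Ppp1r3c promoter: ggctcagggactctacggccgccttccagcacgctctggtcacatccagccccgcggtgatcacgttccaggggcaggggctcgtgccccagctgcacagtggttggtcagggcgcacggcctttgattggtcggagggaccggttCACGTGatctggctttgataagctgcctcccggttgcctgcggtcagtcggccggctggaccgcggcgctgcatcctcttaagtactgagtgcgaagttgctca
It ran from 51.2 to 70.6 CPM in DN:WT (median 57.0), from 35.0 to 139.8 in DN:HET (median 63.0) and from 25.8 to 46.6 in DN:HOM (median 38.3). Every DN:HOM liver lay below every DN:WT liver, while DN:HET livers reached below and far above the wild types. The log2 fold change was -0.64 (SE 0.28, edgeR adjusted p = 0.048; exact two-sided permutation p = 0.00058, n = 7 and 7). The edgeR call rested near the threshold: leaving out any 1 of 9 livers (DN:WT animals 5, 13 and 21, DN:HOM animals 9, 15, 18, 19, 33 and 34) moved it to between -0.68 and -0.57 with adjusted p of 0.051 to 0.098. Ppp1r3c in the knockout line ran from 19.3 to 68.2 CPM in KO:WT (median 40.9), from 10.7 to 87.0 in KO:HET (median 44.8) and from 18.6 to 35.3 in KO:HOM (median 28). KO:HOM lay within or just under the KO:WT range, with a log2 difference of -0.62 (SE 0.27, edgeR adjusted p = 0.10, interval -1.15 to -0.09).

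With the libraries labelled DN:WT animal 10 and DN:HOM animal 12 included, DN:HOM and DN:WT overlapped for all 8 genes, and 0.064% of all genes were lower with no overlap. The log2 fold changes between them became -0.58 for Fbp1, -0.65 for Gckr, -1.42 for Pklr, -1.18 for Khk, -0.41 for Slc2a2 and -1.29 for Pfkfb1, all still called by edgeR (adjusted p from 2.7e-05 to 0.0074). Ppp1r3c went to -0.41 and was no longer called (adjusted p = 0.22), and Pck1 stood at 0.12 (adjusted p = 0.71). The exact two-sided permutation p for 8 against 8 livers was then 0.00093 for Fbp1, 0.0026 for Gckr, 0.00078 for Pklr, 0.00062 for Khk, 0.030 for Slc2a2, 0.0076 for Pfkfb1, 0.037 for Ppp1r3c and 0.78 for Pck1. Without them, 6 of the 8 genes were lower in DN:HOM with no overlap, as were 15.8% of all genes.

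The question that sets the studies side by side is whether homozygosity for the dominant-negative receptor and loss of the receptor moved these genes by different amounts. It was tested as the difference of the homozygous effects, each against its own wild types. 6 of the 8 genes fell further in the knock-in study, where 18.3% of all genes were called in that direction. Pfkfb1 differed by -1.28 on the log2 scale (SE 0.28, edgeR adjusted p = 0.00039). Khk differed by -1.21 (adjusted p = 1.7e-05), Pklr by -1.11 (adjusted p = 0.0029) and Fbp1 by -0.77 (adjusted p = 2.4e-05). Gckr and Slc2a2 differed by smaller amounts, -0.55 and -0.47 (adjusted p of 0.0017 and 0.016). Pck1 differed by 0.61 (adjusted p = 0.17) and Ppp1r3c by -0.02 (adjusted p = 0.97), and the interval for Ppp1r3c, -0.79 to 0.74, leaves room for a difference in either direction. With all 48 livers only Khk (-0.91, adjusted p = 0.024) and Fbp1 (-0.64, adjusted p = 0.011) kept the call, and 6.42% of all genes were called in that direction.

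**Figure D2:**
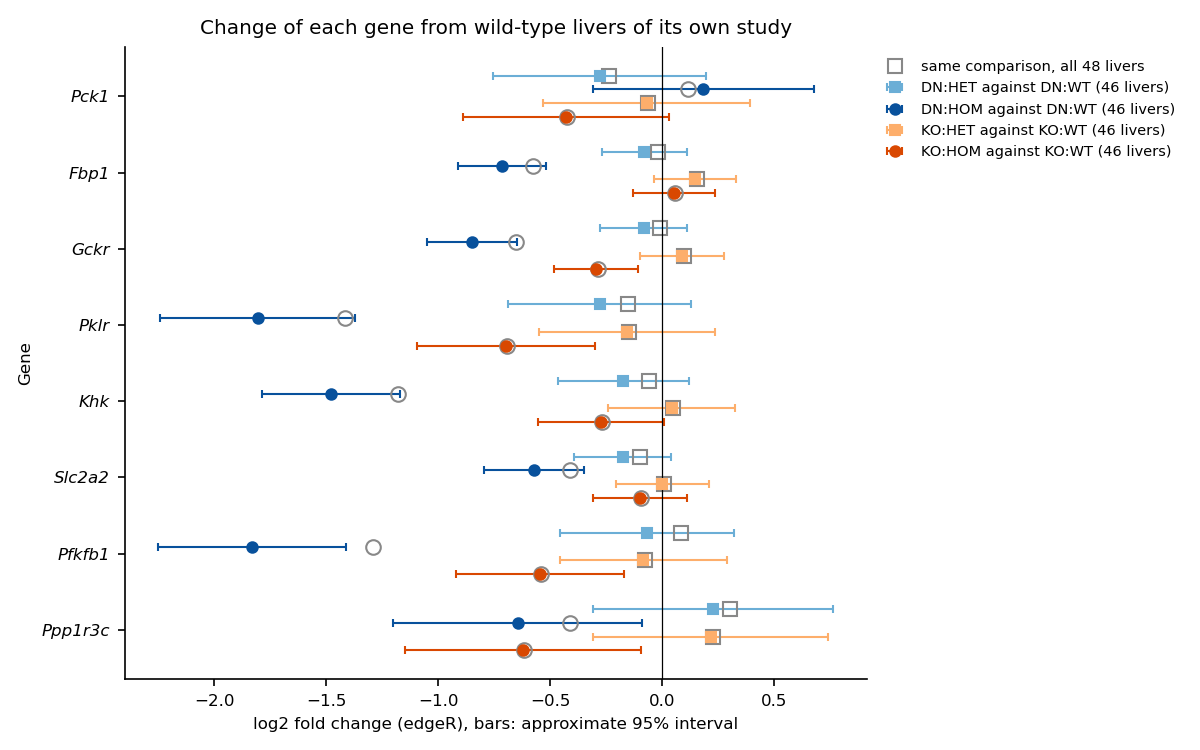
Log2 fold change of heterozygous and homozygous livers from the wild types of their own study for each of the 8 genes (filled symbols, 46 livers, bars the approximate 95% interval; grey open symbols, the same comparison over all 48 livers). The DN:HOM values lie furthest below 0 for Pfkfb1 (-1.83), Pklr (-1.81) and Khk (-1.48), and move toward 0 with all 48 livers. Under library size alone no called gene of the 8 moves to the other side of 0.

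1 copy of the knock-in allele gave log2 differences of -0.28 for Pck1 and Pklr, -0.17 for Khk, -0.08 for Fbp1 and Gckr, -0.18 for Slc2a2, -0.07 for Pfkfb1 and 0.23 for Ppp1r3c (edgeR adjusted p from 0.52 to 0.93). None was called there, nor by DESeq2, against 2.30% of all genes and 2084 genes at an unadjusted p under 0.05. In KO:HET no member was called by either tool (edgeR adjusted p of at least 0.83), against 0.0191% of all genes and 981 genes at an unadjusted p under 0.05. No member was called in either heterozygous group with all 48 livers. Homozygotes were also compared with the heterozygotes of their own study. That comparison called 7 of the 8 genes lower in the knock-in study, from -0.39 for Slc2a2 to -1.77 for Pfkfb1, where 27.8% of all genes were called lower, and did not call Pck1 (0.46, adjusted p = 0.10). Under library size alone Slc2a2 (-0.02, adjusted p = 0.87) and Ppp1r3c (-0.49, adjusted p = 0.11) lost the call and Pck1 was called higher (0.82, adjusted p = 0.0034). In the knockout study it called Gckr (-0.38, adjusted p = 0.0072) and Ppp1r3c (-0.84, adjusted p = 0.038), where 3.34% of all genes were called lower. With all 48 livers the knock-in still had 7 of the 8 called, from -0.31 for Slc2a2 (adjusted p = 0.041) to -1.38 for Pfkfb1, where 24.9% of all genes were called lower. Neither knockout call was then made by edgeR (Gckr -0.38, adjusted p = 0.060; Ppp1r3c -0.84, adjusted p = 0.069), where 1.13% of all genes were called lower, but DESeq2 over all 48 livers called both (Gckr -0.38, adjusted p = 0.034, and Ppp1r3c -0.85, adjusted p = 0.036). The Ppp1r3c call was also lost under library size alone (-0.72, adjusted p = 0.068), with each study fitted alone (adjusted p = 0.097), with only the groups compared (adjusted p = 0.10) and without the libraries under 10000000 reads (-0.65, adjusted p = 0.16).

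Per kilobase of exon, the order of the levels in DN:WT livers was Fbp1 at 406 ± 44.3 CPM per kb (SD, n = 7), Pck1 at 288 ± 65.1 and Pklr at 137 ± 30.7. Gckr at 84.7 ± 8.58 and Khk at 81.6 ± 13.4 did not differ beyond their spread, and Slc2a2 stood at 59.8 ± 9.56. The length of a gene was that of all its annotated exons together (7397 bases for Khk, 4335 for Gckr). The order between genes therefore depends on the annotation. In CPM without that length, Khk (mean 604) stood above Gckr (mean 367) in DN:WT. Ppp1r3c at 17.9 ± 2.27 and Pfkfb1 at 8.88 ± 0.908 were the least abundant of the 8. With animal 10 included, the DN:WT means ran in the same order, from 390.1 for Fbp1 to 8.02 for Pfkfb1. In KO:WT livers Pck1 led at 1059 ± 277 CPM per kb (SD, n = 8), ahead of Fbp1 at 435 ± 33.7 and Pklr at 129 ± 28. Khk, Slc2a2 and Gckr were within their spread of each other (69.3 ± 9.26, 68.7 ± 6.93 and 66.5 ± 9.58), as were Pfkfb1 and Ppp1r3c (12.9 ± 5.36 and 12.6 ± 5.20).

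Within groups, the 8 genes did not vary as a block. After the group means were removed, Pklr and Khk followed each other across the 46 livers with Pearson's r = 0.87, and by 0.87 in the knock-in and 0.88 in the knockout livers. Fbp1 followed Pklr (0.69), Khk (0.62) and Slc2a2 (0.59), and Gckr followed Khk (0.59). Pck1 had r between -0.09 and 0.33 with the other 7 genes, where the studies partly had opposite signs (with Pklr -0.40 in the knock-in and 0.17 in the knockout livers), and over the 46 livers Pfkfb1 had r of at most 0.33 with any other. Slc2a2 and Pfkfb1 had r = 0.67 in the knock-in livers and -0.42 in the knockout livers. Over all 48 livers r was 0.92 for Pklr with Khk, 0.79 for Fbp1 with Pklr and 0.75 for Gckr with Khk, Pfkfb1 had r up to 0.63 (with Khk), and Pck1 had r between -0.14 and 0.14 with the other genes. These values describe genes counted in the same libraries and carry no test.

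**Figure D3:**
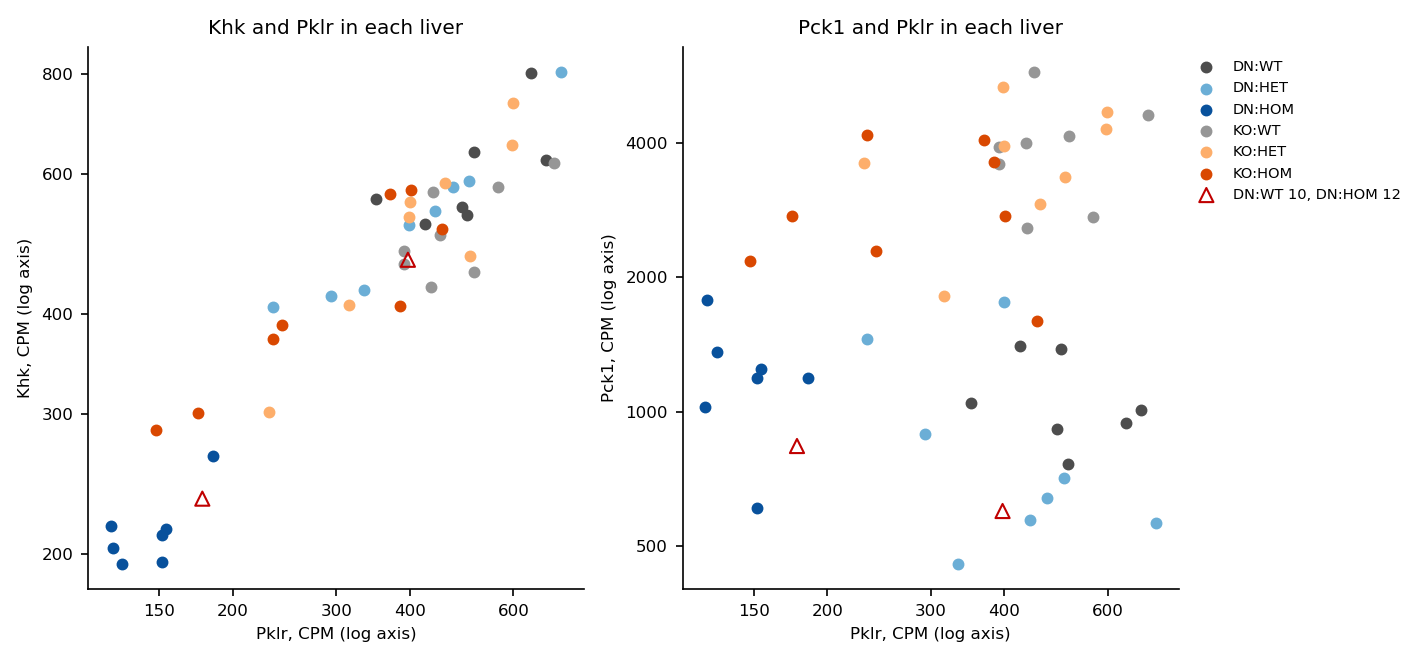
Khk against Pklr and Pck1 against Pklr in each liver (TMM-scaled CPM, logarithmic axes), coloured by genotype group, with open triangles for the pair of left-out libraries. Khk and Pklr rise together in both studies, and in the other panel the knockout livers lie at higher Pck1 than most knock-in livers with the same Pklr.

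The genes outside the sugar pathways whose levels were most like each member's over the 46 livers were found by Pearson's r of log2 CPM among 13108 genes. For Pklr they were Hcn3 (r = 0.953), which overlaps it on the opposite strand, and Xpot (0.922). For Khk they were Gm35986 (0.938) and Immp2l (0.920). Pfkfb1 was most like Arhgef37 (0.946) and Trak1 (0.930), Fbp1 like Atp5f1a (0.941) and Cul4a (0.937), and Slc2a2 like Adi1 (0.926) and Iyd (0.916). Gckr was most like Leap2 (0.888), Pck1 like Klf13 (0.916) and Gne (0.905), and Ppp1r3c, the least matched, like Nsmf (0.781) and Slc30a10 (0.751). Much of this likeness lies between groups: with group means removed, r ranged from 0.581 for Klf13 with Pck1 to 0.898 for Hcn3 with Pklr.

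The wider pathways were taken from lists of 117 tested genes, the 8 members included. In DN:HOM livers 71 of the 117 were called lower, 22 higher and 24 were not called, with a median log2 fold change of -0.37 against -0.01 over all genes. In KO:HOM livers 24 were lower, 12 higher and 81 not called, with a median of -0.11 against -0.02, where 11.5% of all genes were called higher. With all 48 livers, of 116 genes tested, the knock-in counts were 64 lower and 16 higher, where 25% of all genes were called lower and 23% higher, and the knockout counts 8 lower and 8 higher, where 4.12% were called lower and 8.79% higher. The shares of all genes over 46 livers, 30% lower and 29.1% higher in DN:HOM and 7.87% lower and 11.5% higher in KO:HOM, are those to set each list's count below against.

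The 6 tested genes of fructose and polyol handling were all called lower in DN:HOM livers and none was called in KO:HOM livers. They included Khk, described above. Tkfc, a triokinase that acts further along the same route, fell by 0.95 and Glyctk, glycerate kinase, by 0.64 on the log2 scale. Slc2a5, the fructose transporter GLUT5, fell by 1.48 and Sord, sorbitol dehydrogenase, by 0.78. All 6 fell further in the knock-in than in the knockout study by the difference of effects, where 18.3% of all genes were called in that direction, and with all 48 livers 3 of the 6 kept that call, where 6.42% were.

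In gluconeogenesis, 10 of 13 genes were called lower, 1 higher and 2 not called in DN:HOM, with a median of -0.77. Pcx, pyruvate carboxylase, was lower by -1.24 (779 ± 40.5 to 327 ± 21.1 CPM), and Slc37a4, the glucose 6-phosphate translocase, by -1.26. G6pc1, the liver glucose 6-phosphatase, was lower by -1.24 (edgeR adjusted p = 0.0025). The exception was Pck2, the mitochondrial counterpart of Pck1, which rose from 4.60 ± 0.976 to 13.1 ± 1.64 CPM (SD, n = 7 each; log2 fold change 1.53). In KO:HOM 2 of the 13 were lower, Got1 and Mdh1, a transaminase and a malate dehydrogenase of the cytosol.

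Glycolysis was split. Of 19 genes, 11 were lower, 5 higher and 3 not called in DN:HOM, and 3 lower, 5 higher and 11 not called in KO:HOM. Pklr fell while Pkm, the pyruvate kinase of muscle and other tissues, rose from 13.1 ± 4.26 to 46.5 ± 8.36 CPM in DN:HOM (log2 fold change 1.84) and from 11.3 ± 2.34 to 37.3 ± 19.2 in KO:HOM (1.73). Hk1, a hexokinase of most other tissues, rose by 1.12 in DN:HOM and by 1.27 in KO:HOM. Pfkfb1 fell while Pfkfb4, a paralogue known from testis and tumours, rose by 2.57 and 1.65 on the log2 scale.

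**Figure D4:**
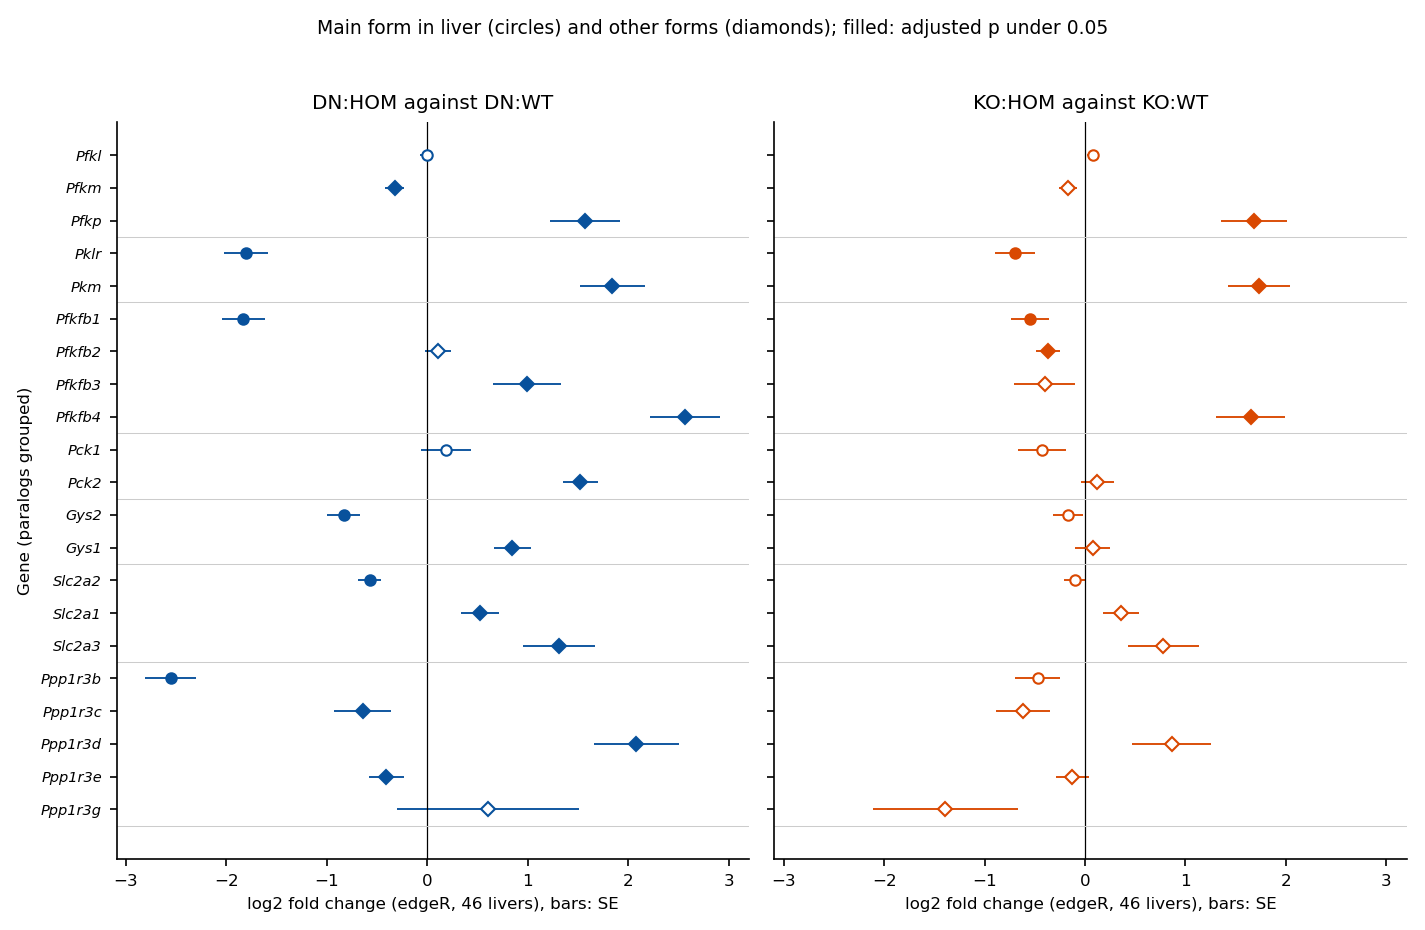
Log2 fold change of homozygous against wild-type livers (46 livers, bars SE) for enzymes with several forms, paralogues grouped, in the knock-in and the knockout study. Circles are the main liver form, diamonds the others, and filled symbols have an adjusted p under 0.05. Pklr and Pfkfb1 lie left of 0 and Pkm and Pfkfb4 right of it in both studies. Under library size alone the lower call for Pfkm in DN:HOM moves to the other side of 0, as does that for Ppp1r3e.

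Of 21 glycogen genes, 12 were lower and 4 higher in DN:HOM, with a median of -0.25. Ppp1r3b, the main glycogen-targeting subunit of liver, fell from 282 ± 117 to 47.6 ± 19.9 CPM (log2 fold change -2.55), beside -0.64 for its relative Ppp1r3c. Gys2, the liver glycogen synthase, fell by 0.83, Pygl, the liver phosphorylase, by 1.19, while Gys1, the muscle synthase, rose by 0.85. In KO:HOM 3 of the 21 were lower, among them Pygl (-0.30), and 1 was higher.

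Among 26 regulators, 14 were lower and 3 higher in DN:HOM, and 8 lower and 0 higher in KO:HOM. Mlxipl, which encodes ChREBP, fell by 1.33 and 0.41 on the log2 scale, and Srebf1, which encodes the insulin-responsive factor SREBP-1, by 3.18 and 0.71. Of 14 genes of pyruvate handling and malic enzyme, 11 were lower and 2 higher in DN:HOM, including Me1, cytosolic malic enzyme (-2.60), and Pdk1, a kinase that restrains pyruvate dehydrogenase (-2.46). Igfbp1, an insulin-repressed secreted protein, was higher by 1.19 in DN:HOM (adjusted p = 0.028) and lower by -1.25 in KO:HOM (adjusted p = 0.038), but neither call held with all 48 livers (0.76 and -1.25, adjusted p of 0.16 and 0.062). Of 8 pentose phosphate genes, 5 were lower and 1 higher in DN:HOM, and of 7 glucose transporters 2 were lower and 4 higher.

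**Figure D5:**
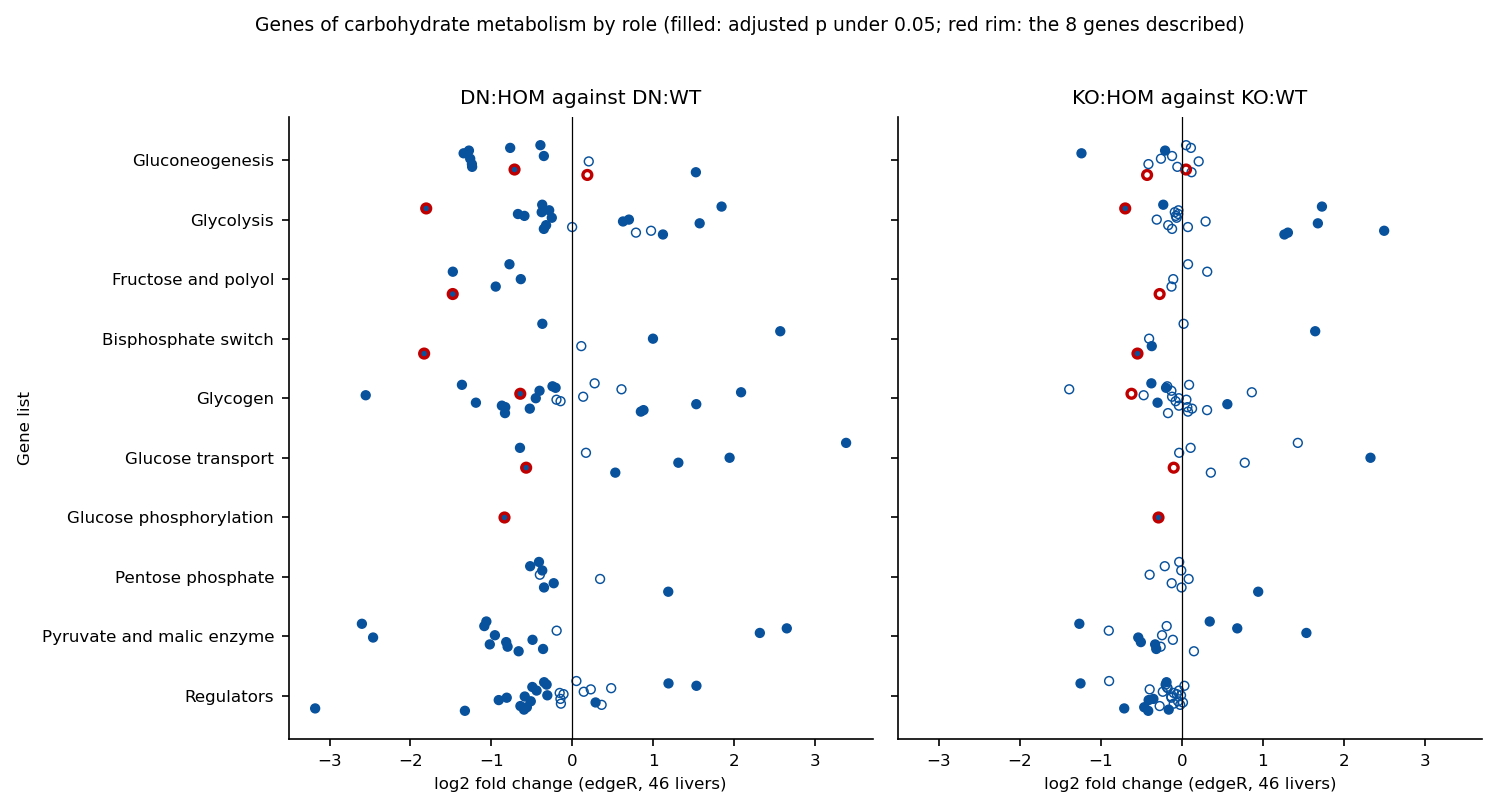
Log2 fold change of homozygous against wild-type livers (46 livers) for the pathway genes by list, in both studies, with a point per gene reported here, filled where the adjusted p was under 0.05 and rimmed in red for the 8 genes described. The fructose genes lie below 0 in DN:HOM and near 0 in KO:HOM. Under library size alone 19 of the 71 lower calls in DN:HOM move to the other side of 0, none of them among the 8 genes.

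With all 48 livers every DN:HOM call of a pathway gene named above, other than those of Ppp1r3c and Igfbp1, was also made. In KO:HOM those of Mdh1 (-0.20, adjusted p = 0.39), Pygl (-0.29, adjusted p = 0.18), Mlxipl (-0.41, adjusted p = 0.10) and Srebf1 (-0.70, adjusted p = 0.20) were not.

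The scaling also moved these counts. DN:HOM libraries had TMM factors of 1.21 to 1.34 against 0.92 to 0.97 in DN:WT, and under library size alone the median of all genes moved from -0.01 to 0.42 in the knock-in and from -0.02 to 0.09 in the knockout comparison. The share of calls that were higher moved from 49.3% to 84.2% and from 59.4% to 85.7%. The lower calls for Fbp1 (-0.28), Gckr (-0.42), Pfkfb1 (-1.41), Pklr (-1.37) and Khk (-1.05) in DN:HOM held at these smaller sizes, those for Slc2a2 (-0.14, adjusted p = 0.19) and Ppp1r3c (-0.22, adjusted p = 0.50) did not, and Pck1 became higher (0.61, adjusted p = 0.032). In the pathway lists the knock-in calls became 38 lower and 46 higher. The knockout calls went from 24 lower and 12 higher to 9 lower and 16 higher, and none of the 46-liver calls changed sign. The 19 knock-in calls that changed sign included Ldha, Tpi1, Eno1, Pgam1, Gpi1, Taldo1 and Gsk3b.

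The livers also differed in markers of other cell types. Summed over 10 macrophage markers, the level ran from 123 to 247 CPM in DN:WT and from 1147 to 1837 in DN:HOM, and from 90.3 to 257 in KO:WT and 331 to 1278 in KO:HOM. 9 of those 10 were called higher and 1 lower in DN:HOM, and 8 higher in KO:HOM. Of 10 stellate cell markers 9 were higher in DN:HOM and 6 in KO:HOM, and of 8 T cell markers 4 and 8. The 6 cholangiocyte markers, all called higher in DN:HOM and 1 in KO:HOM, rose in median sum from 42.9 to 888 CPM in the knock-in and stood at 33.2 and 85.3 in the knockout study. Of 6 endothelial markers 4 were lower and 1 higher in DN:HOM, and 1 lower and 1 higher in KO:HOM, and the median sum was 129.8 CPM in DN:WT and 87.2 in DN:HOM. Of 3 erythroid markers 2 were lower in DN:HOM and 1 in KO:HOM. The median erythroid sum was 376 CPM in DN:WT, 171 in DN:HOM, 209 in KO:WT and 193 in KO:HOM. Pklr, also the pyruvate kinase of red cells, had medians of 499.8, 152, 444 and 306 CPM in these groups. Both were thus lower in DN:HOM than in DN:WT. Between the wild types the erythroid sums stood apart, while Pklr was not called (-0.08, edgeR adjusted p = 0.88). Summed over 9 hepatocyte markers the level ran from 69506 to 84952 CPM in DN:WT and from 46820 to 54679 in DN:HOM, and from 80564 to 106292 in KO:WT and 62079 to 82322 in KO:HOM, with 6 of the 9 called lower and 1 higher in each line. In DN:HET, animals 4 and 22 had macrophage sums of 1126 and 1304 CPM, against 160.4 to 460.2 in the other 6. No marker was at 0 in any group, and the hepatocyte markers had the highest sum of the lists in every group. The library labelled DN:WT animal 10 had sums of 56604 for hepatocyte, 1798 for macrophage and 1159.6 for cholangiocyte markers, and that labelled DN:HOM animal 12 had 89052, 127 and 43.4. Their part in the falls of the liver genes and the rises of Pkm, Hk1 and Pfkfb4 was not tested. In bulk tissue, fewer hepatocytes and less RNA per hepatocyte cannot be told apart.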

How the data were processed

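Livers of 48 mice were profiled by stranded polyA RNA-seq (Novogene libraries). Per the labels and the submitters' processing notes, the authors aligned reads to GRCm39 with STAR 2.5.0a and deposited unnormalized read counts per gene, 1 file per liver, unstranded and by strand. The column of the gene's own strand was used. It held 6.97 to 8.62 times the reads of the opposite strand, and reads that named no gene (group medians 25.2% to 30.5%) were left out. Each liver was 1 mouse, so p-values measure the spread between mice.

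The 8 genes and all lists were chosen with earlier results of these data known. The genes named are the 8, the pathway and marker lists, Nr1h3, and for each of the 8 the 2 genes outside the pathway lists with the highest r over 46 livers; some of these genes are counted but not reported here by name. Genes passing filterByExpr were fitted with edgeR 4.0.16 (R 4.3.3; TMM, 6 group means, quasi-likelihood test, Benjamini-Hochberg, threshold 0.05). The study used DESeq2, and DESeq2 1.42.0 was run here as an alternative. Other alternatives included library size alone, no filter, other sample sets and leaving out each wild-type or homozygous liver. Log2 CPM used a prior count of 2, and intervals are approximate 95% intervals from the SE. On simulated counts for DN:HOM against DN:WT over 15248 genes, 69.4% of genes changed by 1 log2 unit and 97.9% of those changed by 2 were called. There 98 genes were changed by 1, 97 by 2 and 15053 not at all. In the measured counts 59.1% of genes were called, so the simulated rates need not hold for them. Figures were drawn with matplotlib 3.10.9. Gene positions come from the GRCm39 annotation, and 98.8% of the identifiers matched it.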

Additional observations from a re-analysis of the deposited data

Results flagged for a closer look

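Within the groups of 8 livers, gene by gene over 48 such groups, a single liver stood far from the rest by Dixon's criterion in 9 cases, where chance gives about 1 in 20 groups (5%). All 9 were the same pair of libraries. The library labelled DN:WT animal 10 stood low for Gckr (226 CPM), Khk (235 CPM), Pfkfb1 (12.6 CPM) and Ppp1r3c (35.7 CPM). The library labelled DN:HOM animal 12 stood high for Fbp1 (890.1 CPM), Gckr (366 CPM), Pklr (397 CPM), Khk (468 CPM) and Pfkfb1 (56.8 CPM). For Pfkfb1 the first lay within the range of the other DN:HOM livers and the second within that of the other DN:WT livers. Why these libraries differ was not tested, and whether their labels were exchanged is not given in the sources used here.

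The homozygous effect differed between the knock-in and knockout studies by edgeR's test of the difference, over 46 livers, for Fbp1 (-0.77 on the log2 scale), Gckr (-0.55), Pklr (-1.11), Khk (-1.21), Slc2a2 (-0.47) and Pfkfb1 (-1.28). Line, site and study cannot be told apart in this difference.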

How the results depend on the processing

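Among the 8 genes no called direction turned under any alternative. The knock-in falls of Fbp1, Gckr, Pklr, Khk and Pfkfb1 were called under each of 11 alternatives, that of Slc2a2 under 10 and that of Ppp1r3c under 5. The knockout fall of Pklr was called under 10 of 11, of Gckr under 7 and of Pfkfb1 under 5. The greater fall in the knock-in was called under each of 9 alternatives for Fbp1 and Khk, 7 for Pklr and Pfkfb1 and 6 for Gckr and Slc2a2. The choice of livers moved most counts. With all 48 livers, 2016 genes were called in KO:HOM (3048 over 46 livers), 39 in DN:HET (361) and 1636 for the difference of effects (5456). Of the 8 genes, 0 were then called in KO:HOM and 2 for the difference, and 16 pathway genes were called in KO:HOM (36 over 46 livers). DESeq2 over all 48 livers called 110 genes in DN:HET, 5 in KO:HET and 2009 for the difference, 1 of the 8 genes in KO:HOM and 2 for the difference, and 22 pathway genes in KO:HOM. DESeq2 over 46 livers called 617 genes in DN:HET and 10 in KO:HET. Fitting each study alone gave 239 genes in DN:HET, and only the groups compared gave 5 in DN:HET, 1 in KO:HET and 1 of the 8 genes in KO:HOM. Without the filter 8 genes were called in KO:HET (3 with it). Library size alone called 1 of the 8 genes in KO:HOM. Leaving out DN:WT animal 10 alone, an alternative chosen after seeing the data, called 2 of the 8 for the difference, and leaving out DN:HOM animal 12 alone, also added later, called 5. Leaving out each wild-type or homozygous liver in turn, also added later, called 6 to 7 of the 8 genes in DN:HOM. It called 1 to 4 in KO:HOM and 6 for the difference. Heterozygous livers were not left out. KO:HOM fell to 1 of 8 without KO:HOM animal 26, KO:HOM animal 27 or KO:WT animal 5. The cause of these shifts was not tested. No paired analysis was possible because the labels give animal numbers, not numbers shared between the groups compared. Depth limits Pfkfb1 and Ppp1r3c most, at 243 reads of Pfkfb1 in its lowest DN:HOM library and 119 of Ppp1r3c in its lowest KO:HOM library.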

Other observations

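Among the 22 genes of the pathway lists called higher in DN:HOM over 46 livers, 3 of those not named above are given here. Pdp1, which encodes a phosphatase that activates pyruvate dehydrogenase, went from 0.855 ± 0.103 to 5.36 ± 0.634 CPM (SD, n = 7 each), a log2 fold change of 2.65 (edgeR adjusted p = 2.3e-12) that stood at 1.67 with all 48 livers (adjusted p = 0.0003). In KO:HOM its log2 fold change was 0.69 (adjusted p = 0.035), and the call was lost with all 48 livers (adjusted p = 0.25). Sik1, a kinase induced by cyclic AMP that restrains gluconeogenic genes, went from 11.9 ± 6.43 to 34.1 ± 5.91 CPM in DN:HOM (log2 fold change 1.53, and 1.14 with all 48 livers) and stood at 0.03 in KO:HOM (adjusted p = 0.95). G6pdx, the entry enzyme of the pentose phosphate pathway, was called higher in both homozygotes (1.18 and 0.94), and in neither with all 48 livers (adjusted p of 0.064 and 0.069). The levels of macrophage, cholangiocyte and hepatocyte markers given above moved with the same groups, and their part in these values was not tested.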
